A study of Mus musculus with 4 samples.

Results

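The guanylate-binding proteins (GBPs) and immunity-related GTPases (IRGs) are families of interferon-induced GTP-hydrolysing proteins. The genes described here are 9 members of them, taken by name from the 53801 genes of a mouse RNA sequencing count table: the 4 GBPs Gbp2, Gbp3, Gbp5 and Gbp7, and the 5 IRGs Igtp, Irgm1, Irgm2, Iigp1 and Ifi47. The list was given by name, with no threshold on a measured value, but it was chosen with earlier results of these data known. All 9 genes were found and passed the filter on low counts. Osteoclast precursor cells, myeloid cells from which the multinucleated, bone-resorbing osteoclasts form, were taken from wild-type C57BL/6 mice. The labels name 2 mice and number the cells as precursor cells 2 and precursor cells 1. They do not tie the numbers to the mice in words, and a number is taken here as 1 source of cells. Cells of each number received DKK1 (200 ng/ml) or PBS, the vehicle, and were left for 3 h. DKK1 (Dickkopf-1) is a secreted inhibitor of Wnt signalling that binds the LRP5 and LRP6 co-receptors. This gave 4 libraries, 2 per treatment, and the 2 libraries with the same number are treated as a pair. The labels do not state the age or sex of the mice, the tissue the cells came from or how they were cultured.

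Interferon gamma signals through its receptor and the kinases JAK1 and JAK2 to gamma-activated sites (GAS) in promoters. Type I interferons signal through TYK2 and JAK1 to a complex that holds STAT2 and IRF9 and binds interferon-stimulated response elements (ISRE). Both routes, with IRF1, induce GBP and IRG genes in macrophages. The induced proteins assemble on vacuoles that hold intracellular pathogens, and GBPs also coat bacteria that reach the cytosol and feed inflammasome activation.

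The promoters of these genes are shown because 7 of them hold the letters of the ISRE core before the start, and 4 of these those of the GAS as well. RefSeq (GRCm38.p6) promoter windows, which run from 250 bases before to 50 bases after a start, were given for 8 of the 9 members, and Gbp3 had 2 of them. The ISRE core was searched as GAAANNGAA and the GAS as TTCNNNGAA, on both strands. The GAS reads the same on both strands, and the ISRE core can overlap a copy of itself, as in Gbp3 and Irgm1. In the stretches below, printed along the strand of the gene, capitals mark these matches. A match on the opposite strand reads TTCNNTTTC.
Gbp2: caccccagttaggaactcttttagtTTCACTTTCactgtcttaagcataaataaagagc
Gbp3: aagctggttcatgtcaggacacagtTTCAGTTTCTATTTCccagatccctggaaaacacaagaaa
Gbp5: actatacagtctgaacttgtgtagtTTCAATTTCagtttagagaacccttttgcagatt
Gbp7: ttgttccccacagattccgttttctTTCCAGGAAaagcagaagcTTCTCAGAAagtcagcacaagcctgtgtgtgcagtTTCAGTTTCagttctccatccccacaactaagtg
Igtp: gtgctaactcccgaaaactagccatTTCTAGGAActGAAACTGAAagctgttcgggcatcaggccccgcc
Irgm2: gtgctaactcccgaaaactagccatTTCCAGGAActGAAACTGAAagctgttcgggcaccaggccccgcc
Irgm1: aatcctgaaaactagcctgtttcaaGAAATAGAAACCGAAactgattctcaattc

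An ISRE core stood in the window of 7 of the 8 members, against 8.56% of all 32851 promoter windows. A GAS stood in the window of 4 of the 8, namely Gbp5, Gbp7, Igtp and Irgm2, against 8.3% of all windows. Counts of both motifs in related gene lists are given further below. The Gbp5 matches to GAS lie outside its printed stretch. The Ifi47 window held neither motif, nor did the other window of Gbp3, which says only that these letters are not in these windows. In Igtp and Irgm2 a GAS ended 2 bases before an ISRE core, and the printed stretches of these neighbouring genes were identical at 68 of 70 bases, while their windows as a whole were identical at 184 of 270 compared bases. A match is a string of letters and does not show that a factor binds there.

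**Figure D1:**
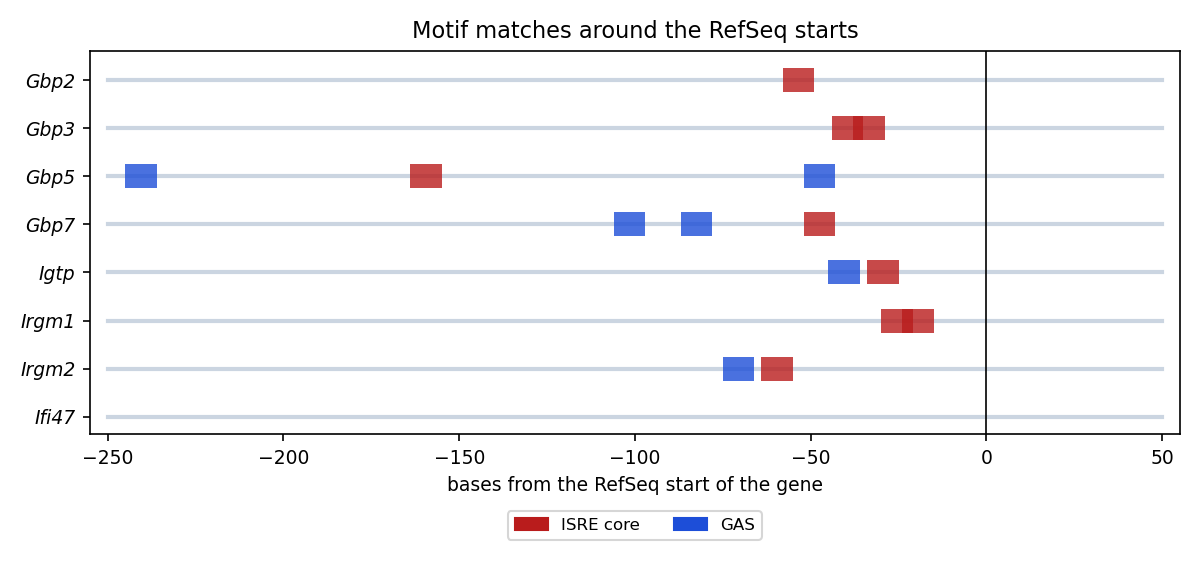
Position of ISRE core and GAS matches in the RefSeq promoter window of each of the 8 members that have one; the horizontal axis is bases from the RefSeq start, and each box is 1 match. All 7 windows with an ISRE core have their match before the start, and the Ifi47 window has none.

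By GENCODE M21 on GRCm38 (mm10), the 4 GBP genes lie close together on chromosome 3. Gbp5 spans chr3:142493978-142522344, Gbp7 chr3:142530342-142550149, Gbp3 chr3:142560026-142573209 and Gbp2 chr3:142620602-142638008, all on the plus strand. The printed stretches stand at chr3:142496745-142496803 (Gbp5), chr3:142530205-142530317 (Gbp7), chr3:142559975-142560039 (Gbp3) and chr3:142620580-142620638 (Gbp2). The Gbp2 and Gbp3 stretches thus reach into annotated gene bodies, because the annotated gene begins before the stretch ends. The Gbp5 stretch lies wholly inside the annotated gene.

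Of the IRG genes, 4 lie on chromosome 11. They are Irgm1 at chr11:48861968-48871683 on the minus strand, Ifi47 at chr11:49076587-49096974, Igtp at chr11:58199556-58207591 and Irgm2 at chr11:58199618-58222782, the last 3 on the plus strand. Their printed stretches stand at chr11:48871421-48871475 on the minus strand (Irgm1), chr11:58199486-58199555 (Igtp) and chr11:58214877-58214946 (Irgm2). The Irgm1 and Irgm2 stretches lie wholly inside the annotated genes, whose longest span begins before the RefSeq start. Iigp1 lies on chromosome 18. Igtp and Irgm2 share 162 exon bases, so part of their counts may be split between them. Ifi47 shares 111 exon bases with the olfactory receptor gene Olfr56 and 106 with the pseudogene Gm12188, which together had far fewer counts than Ifi47 itself: Ifi47 held 95.8% of the counts of the 3 models.

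The libraries held 46011873 (DKK1, precursor cells 2), 41163663 (PBS, precursor cells 2), 53537927 (DKK1, precursor cells 1) and 53235399 counts (PBS, precursor cells 1). The members had between 487 and 16947 counts in a library. Levels below are in CPM, counts scaled to a common library size with TMM factors. Intervals given for a single pair cover counting error only. The labelled cell type was checked on 10 monocyte and osteoclast precursor markers, among them the receptors Csf1r and Tnfrsf11a (RANK). None was at 0 in any library. Without Lyz2, the most abundant of them, the other 9 summed to 13247 CPM (DKK1) and 13138 CPM (PBS) in precursor cells 2, and to 8937 CPM (DKK1) and 8931 CPM (PBS) in precursor cells 1. With Lyz2 the order turned, at 27932 CPM (DKK1) and 27425 CPM (PBS) in precursor cells 2, and 33719 CPM (DKK1) and 33840 CPM (PBS) in precursor cells 1.

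The 9 GTPase genes were abundant in precursor cells 2 and several-fold lower in precursor cells 1, in both treatments. Their summed level was 2192 CPM with DKK1 and 2159 CPM with PBS in precursor cells 2. In precursor cells 1 it was 367 CPM with DKK1 and 289 CPM with PBS. In bulk RNA, a smaller share of expressing cells and less RNA per cell cannot be told apart.

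Compared per length within a library, on FPKM values from the authors' deposited tables, Igtp was the most abundant of the 9 in all 4 libraries. Its level in the authors' deposited tables was 123 FPKM (DKK1) and 131 FPKM (PBS) in precursor cells 2, and 20.8 FPKM (DKK1) and 19.0 FPKM (PBS) in precursor cells 1. In precursor cells 2, the order after Igtp was Ifi47, Gbp2, Irgm2, Irgm1, Iigp1, Gbp3, Gbp7 and Gbp5 with either treatment, and no neighbours in that order had overlapping ranges. In precursor cells 1 the order was less fixed. There the authors' deposited tables gave Gbp2 16.8 FPKM (DKK1) and 14.0 FPKM (PBS), Irgm2 16.4 and 13.5 FPKM, and Irgm1 15.1 and 13.0 FPKM, ranges that overlap. Ifi47 ranked 2 with DKK1 at 18.8 FPKM and 5 with PBS at 8.28 FPKM in the authors' deposited tables. Iigp1 ranked 6 in precursor cells 2, and in precursor cells 1 it ranked 8 with DKK1 and 9 with PBS.

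**Figure D2:**
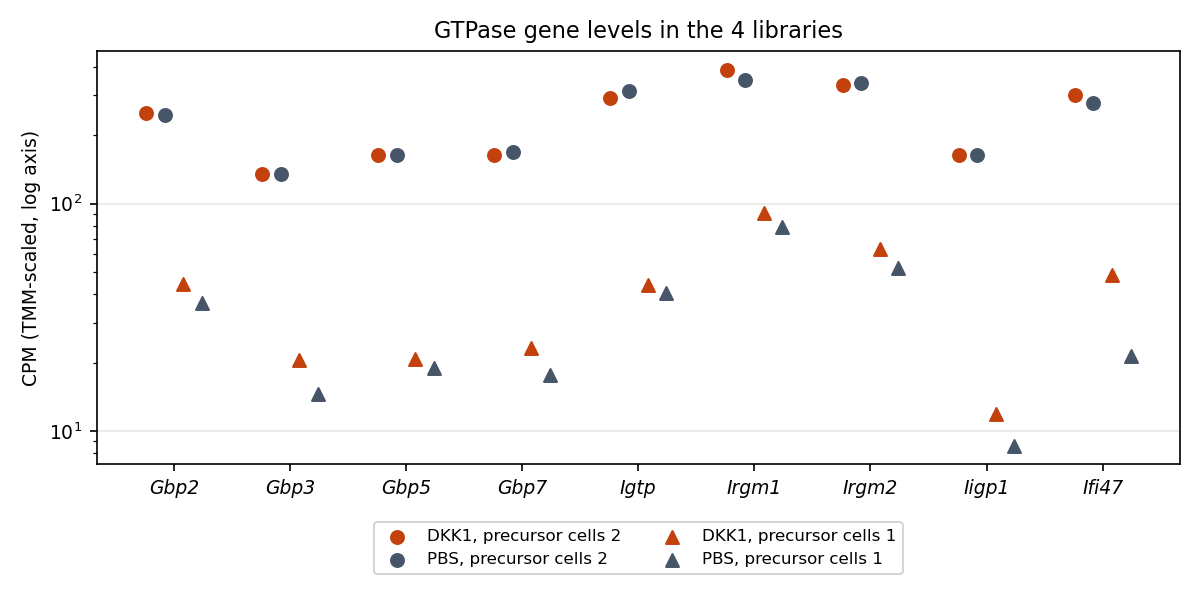
Level of each of the 9 genes in the 4 libraries, in TMM-scaled CPM on a log axis; circles are precursor cells 2, triangles precursor cells 1, orange DKK1 and grey PBS, and each point is 1 library. For every gene the 2 circles lie above the 2 triangles, from a 4.35-fold fitted difference for Irgm1 to 16.1-fold for Iigp1.

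The first comparison asks whether 3 h of DKK1 changed these genes. No member passed the test. With edgeR's quasi-likelihood test, precursor cells as a block and Benjamini-Hochberg adjustment over 17462 genes, 0 of the 9 were called, and 2 had an unadjusted p under 0.05. Over all genes tested, 9 were called (0.0515%; 7 higher and 2 lower with DKK1), and 781 had an unadjusted p under 0.05 (4.473%). The fitted log2 change was above 0 for all 9 members, with a median of 0.14, against a median of -0.0015 over all genes tested, of which 49.6% were above 0. These members come from families that share inducers, so 9 signs are not 9 independent observations.

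Among the GBPs, Gbp2, which gathers on parasite vacuoles and on cytosolic bacteria, had 250 CPM (DKK1) and 246 CPM (PBS) in precursor cells 2, and 44.2 CPM (DKK1) and 36.7 CPM (PBS) in precursor cells 1. The fitted log2 change with DKK1 was 0.13 (95% CI -0.06 to 0.33; edgeR adjusted p = 0.959). The treated and untreated libraries overlapped, since levels differed far more between the pairs than between the treatments. This held for all 9 members.

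Gbp3 had 135 CPM (DKK1) and 136 CPM (PBS) in precursor cells 2, and 20.5 CPM (DKK1) and 14.6 CPM (PBS) in precursor cells 1. Gbp5, which in mouse macrophages takes part in NLRP3 inflammasome assembly, had 163 CPM (DKK1) and 164 CPM (PBS) in precursor cells 2, and 20.7 CPM (DKK1) and 18.9 CPM (PBS) in precursor cells 1. The fitted change was 0.19 (95% CI -0.12 to 0.51) for Gbp3 and 0.05 (95% CI -0.14 to 0.24) for Gbp5. Neither was called. Gbp7, which in mouse macrophages restricts intracellular bacteria, had 164 CPM (DKK1) and 168 CPM (PBS) in precursor cells 2. In precursor cells 1 it had 23.2 CPM (DKK1) and 17.7 CPM (PBS), and its fitted change was 0.14 (95% CI -0.14 to 0.42). As in Gbp3, the treated library was the higher one in precursor cells 1 and slightly the lower one in precursor cells 2.

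Igtp (also called Irgm3), Irgm1 and Irgm2 are the regulatory IRGs, which sit on host membranes and keep the effector IRGs inactive there. Irgm1 had 390 CPM (DKK1) and 350 CPM (PBS) in precursor cells 2, and 91.3 CPM (DKK1) and 78.9 CPM (PBS) in precursor cells 1. It was the member with the smallest p (log2 change 0.18, 95% CI 0.05 to 0.32; edgeR unadjusted p = 0.0166, adjusted p = 0.959). Its treated library was the higher one in both pairs, by 0.15 on the log2 scale in precursor cells 2 and 0.21 in precursor cells 1.

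Igtp had 292 CPM (DKK1) and 313 CPM (PBS) in precursor cells 2, and 44.0 CPM (DKK1) and 40.3 CPM (PBS) in precursor cells 1. Irgm2 had 335 CPM (DKK1) and 339 CPM (PBS) in precursor cells 2, and 63.1 CPM (DKK1) and 52.3 CPM (PBS) in precursor cells 1. Their fitted changes were 0.00 (95% CI -0.18 to 0.19) and 0.12 (95% CI -0.09 to 0.32). With the counts of both genes summed, since they share exon bases, the fitted change was 0.07.

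Iigp1 (Irga6) and Ifi47 (Irgd) are effector IRGs. Iigp1, known for coating Toxoplasma vacuoles, had 163 CPM (DKK1) and 164 CPM (PBS) in precursor cells 2, and 11.8 CPM (DKK1) and 8.62 CPM (PBS) in precursor cells 1. Its fitted change was 0.15 (95% CI -0.14 to 0.45). Ifi47 had 300.0 CPM (DKK1) and 277 CPM (PBS) in precursor cells 2, and 48.6 CPM (DKK1) and 21.5 CPM (PBS) in precursor cells 1. It had the largest fitted change of the 9, at 0.58 (95% CI 0.00 to 1.15; edgeR unadjusted p = 0.0487, adjusted p = 0.959). Most of that value came from precursor cells 1, where 2757 counts with DKK1 stood against 1212 with PBS. Summing Ifi47 with its overlapping models gave 0.54, limma-voom gave 0.37, and a fit with no block for precursor cells gave 0.22, with no call in any of these.

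**Figure D3:**
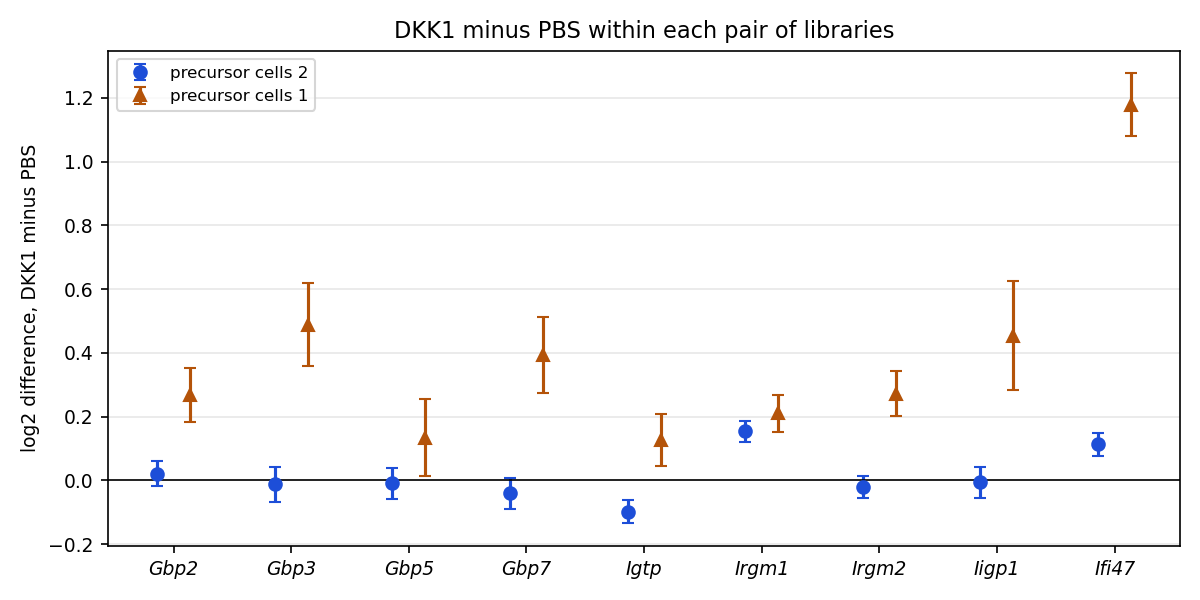
Difference in log2 CPM, DKK1 minus PBS, of each of the 9 genes within precursor cells 2 (blue circles) and within precursor cells 1 (brown triangles); bars are exact 95% intervals for counting error alone. The values of precursor cells 1 are all above 0, with Ifi47 at 1.18, while those of precursor cells 2 lie between -0.10 and 0.15.

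Within the pairs, the differences were larger in precursor cells 1. There the treated library was higher for 9 of 9 members, with a median log2 difference of 0.27, and 48.4% of all genes tested were above 0. In precursor cells 2 it was higher for 3 of 9, namely Irgm1, Ifi47 and Gbp2, with a median of -0.01, and 50% of all genes tested were above 0. The difference in precursor cells 1 exceeded that in precursor cells 2 for 9 of 9 members, as it did for 49.5% of all genes tested. After Ifi47, the largest differences in precursor cells 1 were those of Gbp3 at 0.49 (95% counting interval 0.36 to 0.62), Iigp1 at 0.45 (0.29 to 0.63) and Gbp7 at 0.39 (0.27 to 0.51). In precursor cells 2 the same genes differed by -0.01, -0.01 and -0.04. The pairs give 1 value each, so whether the response differed between the pairs was not tested.

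Counting error was small at this depth, so an interval that excludes 0 was common in all genes. In precursor cells 1 it lay above 0 for 9 of 9 members and for 23.2% of all genes tested. In precursor cells 2 it excluded 0 for 3 of 9 members and for 44.8% of all genes tested; these were Irgm1 at 0.15, Ifi47 at 0.11 and Igtp at -0.10. The authors' deposited tables, which set 1 library against 1, call a gene where its FDR is under 0.05 and its change is 1 or more on the log2 scale in either direction. By the authors' deposited table for precursor cells 1, 7 of 9 members had an FDR under 0.05 and were higher with DKK1, as were 9.11% of the genes listed. Ifi47 (log2 ratio 1.18) was the only member called higher in that authors' deposited table, against 0.498% of the genes listed. In the authors' deposited table for precursor cells 2, 0 of 9 members had an FDR under 0.05, against 16.7% of the genes listed, and 0 were called, against 0.987%. Those tables compare libraries and not treatments.

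Some marker sums were lower in the treated library, that of B cells in precursor cells 1 and that of erythroid cells in both pairs. The 6 B cell markers summed to 119 CPM with DKK1 and 187 CPM with PBS in precursor cells 1. In precursor cells 2 they summed to 28.6 CPM with DKK1 and 28.1 CPM with PBS. The 6 erythroid markers summed to 51.5 CPM (DKK1) and 71.9 CPM (PBS) in precursor cells 1, and to 88.9 CPM (DKK1) and 114 CPM (PBS) in precursor cells 2. None of the 6 B cell markers and none of the 5 erythroid markers tested was called with DKK1. The erythroid marker Klf1 was too low to test. The stromal and endothelial markers summed higher with DKK1 in precursor cells 1, at 96.2 CPM against 86.8 CPM with PBS. Sums of the other cell types are given further below. The part of any of these cells in the GTPase values was not tested.

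The second comparison sets precursor cells 2 against precursor cells 1. All 9 members were higher in precursor cells 2 (edgeR quasi-likelihood, the same model), against 17.9% of all genes tested. Their median log2 difference was 2.96, or 7.78-fold, and the median over all genes tested was -0.0034. Of all 17462 genes tested, 3125 were called higher in precursor cells 2, 2780 were called lower and 11557 were not called. These counts are the background for the calls in the gene lists below. No preparation was replicated apart from its treated and untreated cells, so this test compares these 2 preparations and not mice in general. Its spread is that of the DKK1 response between the pairs, which the edgeR fit draws toward a trend over all genes tested.

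Iigp1 differed most among the members, by 16.1-fold (log2 4.01, 95% CI 3.70 to 4.32; edgeR adjusted p = 1.36e-05). Irgm1 differed least, by 4.35-fold (log2 2.12, 95% CI 1.98 to 2.26; edgeR adjusted p = 8.71e-06), and these intervals do not overlap. In order of fold difference, the other members lay between them: Ifi47 at 8.75-fold, Gbp5 at 8.27-fold, Gbp7 at 8.17-fold, Gbp3 at 7.78-fold, Igtp at 7.18-fold, Gbp2 at 6.15-fold and Irgm2 at 5.87-fold. The 4 GBPs and the IRGs were thus mixed in this order. Ifi47 had the widest interval, log2 2.53 to 3.73, because its difference between the preparations was 2.63 with DKK1 and 3.69 with PBS.

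Most other genes of both families were also higher in precursor cells 2. Of 7 other GBP genes, 5 were higher in precursor cells 2, 0 were lower and 2 were not called, with a median log2 difference of 2.77. Gbp6 had 198 CPM (DKK1) and 220 CPM (PBS) in precursor cells 2, and 3.70 CPM (DKK1) and 2.69 CPM (PBS) in precursor cells 1. Its 65.3-fold difference (log2 6.03, 95% CI 5.67 to 6.39) was larger than that of any member. Gbp10 (8.67-fold), Gbp4 (6.80-fold) and Gbp9 (4.55-fold) were also called higher. Gbp6 and Gbp10 are close copies, so counts may be shared between them.

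Of 11 other IRG and giant interferon-induced GTPase genes tested, 10 were higher in precursor cells 2 and 0 were lower, with a median log2 difference of 3.42. Irgq, an IRG-like gene that is not known as interferon-induced, was not called (log2 -0.34, edgeR adjusted p = 0.0634). Tgtp1 and Tgtp2 (Irgb6), effector IRGs and near-identical neighbours whose reads cannot be parted with certainty, differed by 21.5-fold each. Gvin1, a giant GTPase, differed by 7.80-fold and the gene model 9930111J21Rik2 of the same list by 5.34-fold. F830016B08Rik had 185 counts (DKK1) and 169 counts (PBS) in precursor cells 2 and 0 counts in both libraries of precursor cells 1, and the median stayed at 3.42 with this gene at a floor of 3 counts per library.

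DKK1 gave 0 calls in both of these groups. By the smallest unadjusted p, the IRG gene Gm5431 had 150 CPM (DKK1) and 74.7 CPM (PBS) in precursor cells 2, and 10.7 CPM (DKK1) and 9.47 CPM (PBS) in precursor cells 1 (log2 change 0.71; edgeR unadjusted p = 0.0100, adjusted p = 0.959). Unlike Ifi47, it differed mainly in precursor cells 2, by 1.00 on the log2 scale, against 0.17 in precursor cells 1. Gvin1 followed (log2 change 0.19; edgeR unadjusted p = 0.0439, adjusted p = 0.959). Among the other GBPs the smallest p-values belonged to Gbp2b, whose counts were 24 (DKK1) and 0 (PBS) in precursor cells 2 and 16 (DKK1) and 13 (PBS) in precursor cells 1, and to Gbp4 (log2 change -0.15).

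**Figure D4:**
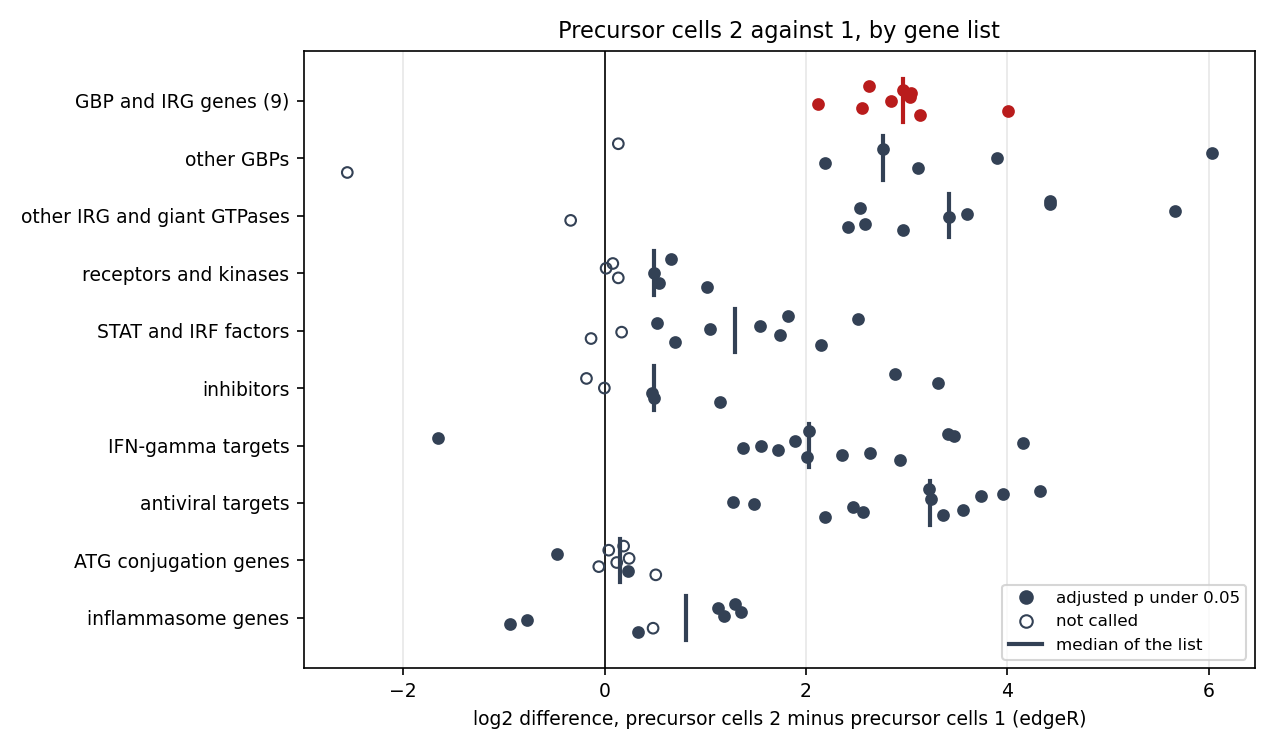
Fitted log2 difference of precursor cells 2 minus precursor cells 1 (edgeR) for the 9 GBP and IRG genes in red and for the other lists of interferon genes in grey; each circle is 1 gene, filled where called, and the bar is the median of the list. F830016B08Rik, with 0 counts in precursor cells 1, counts in the median of its list and is not drawn; the 9 genes have a median of 2.96, the antiviral genes 3.24 and the receptors and kinases 0.49.

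Among the inducing ligands, Ifnb1 (interferon beta) had 324 counts (DKK1) and 282 counts (PBS) in precursor cells 2, and 9 counts (DKK1) and 11 counts (PBS) in precursor cells 1. It was higher in precursor cells 2 by 41.2-fold (log2 5.36, 95% CI 4.37 to 6.36; edgeR adjusted p = 0.000354). Ifng (interferon gamma) was too low to test, with 8 counts (DKK1) and 8 counts (PBS) in precursor cells 2 and 0 counts (DKK1) and 9 counts (PBS) in precursor cells 1. Ifna2, Ifna4 and Ifnl3 had 0 counts in all 4 libraries.

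Of 7 receptors and kinases, 4 were higher in precursor cells 2 and 0 were lower, with a median log2 difference of 0.49. Tyk2 was higher by 2.02-fold, the interferon gamma receptor chain Ifngr1 by 1.58-fold, Jak2 by 1.45-fold and the type I receptor chain Ifnar2 by 1.41-fold. Of 10 transcription factors, 8 were higher in precursor cells 2, with a median of 1.30. Stat2 was higher by 5.74-fold, Batf2 by 4.45-fold and Irf7 by 3.34-fold. Irf3 and Irf8 were not called. Of 7 inhibitors of the pathway, 5 were higher in precursor cells 2, with a median of 0.49, led by Usp18 (9.95-fold) and Socs1 (7.39-fold), which are themselves interferon-induced. Ptpn6 and Pias1 were higher by 1.39-fold and 1.41-fold.

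With DKK1, none of the ligands, receptors, factors or inhibitors tested was called. Irf1, an interferon-induced factor that drives GBP genes, had 271 CPM (DKK1) and 182 CPM (PBS) in precursor cells 2, and 70.9 CPM (DKK1) and 81.6 CPM (PBS) in precursor cells 1. Its difference was 0.58 on the log2 scale in precursor cells 2 and -0.20 in precursor cells 1 (fitted change 0.20, edgeR adjusted p = 0.969). The 9 GTPase genes differed more in precursor cells 1. The relation of Irf1 to these genes was not tested. Irf2 had the smallest p of the factors (log2 change 0.16; edgeR unadjusted p = 0.130). The smallest p-values of the receptors and kinases were those of Ifnar1 (log2 change 0.05) and Jak2 (0.04), and those of the inhibitors were Socs3 (-0.11) and Ptpn2 (0.15).

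Other interferon targets were higher in precursor cells 2 along with the GTPases. Of 13 interferon-gamma-inducible genes tested, 12 were higher and 1 was lower, with a median log2 difference of 2.03. The chemokine Cxcl10 was higher by 10.6-fold, the MHC class II chain H2-Aa by 7.65-fold, the peptide transporter Tap1 by 6.23-fold and Cd274 (PD-L1) by 2.93-fold. The lower one was Ciita, the coactivator of MHC class II genes, with 4.35 CPM (DKK1) and 6.91 CPM (PBS) in precursor cells 2 and 16.6 CPM (DKK1) and 18.4 CPM (PBS) in precursor cells 1 (log2 -1.65; edgeR adjusted p = 0.00140). It thus differed in the opposite direction to H2-Aa, and Ciita is also expressed in B cells, whose markers were lower in precursor cells 2. The part of B cells in its level was not tested. With DKK1 none of the 13 was called, and the smallest unadjusted p-values were those of Fcgr1 (log2 change 0.18; edgeR unadjusted p = 0.0466, adjusted p = 0.959) and Psmb9 (0.16; unadjusted p = 0.0549).

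All 12 antiviral genes tested were higher in precursor cells 2, with a median log2 difference of 3.24. Ifit3 was higher by 15.5-fold, Mx1 by 13.3-fold, Rsad2 (viperin) by 11.8-fold and Ifit1 by 9.34-fold. With DKK1 none of these was called. The smallest unadjusted p-values with DKK1 were those of Oas2 (log2 change -0.35; edgeR unadjusted p = 0.0178, adjusted p = 0.959) and Ifit1 (0.21; unadjusted p = 0.0393). Like the 9 GTPases, 11 of these 12 genes had a higher value in the treated library of precursor cells 1, with a median of 0.24, while the median in precursor cells 2 was 0.02. Their promoter windows, given for 9 of the 12, held an ISRE core in 7. An ISRE core stood in the windows of 4 of 7 other IRG and giant GTPase genes, 3 of 8 interferon-gamma targets, 2 of 8 transcription factors, 2 of 5 ligands, 1 of 5 inhibitors and the 1 other GBP gene that had windows. None stood in the windows of the 7 receptor and kinase genes, the 6 conjugation genes or the 7 inflammasome genes that had one. A GAS stood in the windows of 3 of 7 other IRG and giant GTPase genes, 3 of 8 transcription factors and 2 of 5 inhibitors. It stood in those of 2 of 7 receptors and kinases, 2 of 8 interferon-gamma targets and 2 of 9 antiviral genes. Of the ligands 1 of 5 held it, of the conjugation genes 1 of 6, and of the inflammasome and other GBP genes none.

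Genes that act with the GTPases were also counted. The autophagy-related conjugation genes, which load IRGs and GBPs onto vacuoles, had a median log2 difference of 0.15. Of these 8, Gabarap was higher in precursor cells 2 (1.18-fold), Atg7 was lower (log2 -0.47) and 6 were not called. With DKK1 the smallest p-values of this list belonged to Map1lc3b (log2 change -0.31) and Atg12 (0.15), and none was called. Of 8 inflammasome genes, 5 were higher and 2 were lower in precursor cells 2, with a median log2 difference of 0.81. Casp4, the mouse caspase-11 gene, was higher by 2.56-fold, the DNA sensor Aim2 by 2.45-fold, the pore-forming substrate Gsdmd by 2.27-fold and Casp1 by 2.19-fold. Nlrp3 and Il1b were lower in precursor cells 2 (log2 -0.77 and -0.93). With DKK1 these 2 genes had the smallest unadjusted p of the list, at log2 -0.23 for Nlrp3 and -0.19 for Il1b, and neither was called (edgeR adjusted p = 0.959 for both).

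Profiles over the 4 libraries were compared for tested genes outside the 9 with a mean of at least 5 CPM. Gm models, Rik models and genes with no symbol were left out. Of the genes searched, the 5 with a profile closest to the mean profile of the 9 members were Gvin1, Phf11d, Ms4a4c, Fgl2 and Ifi205. Likeness was measured as the root mean square distance of centred log2 CPM. Gvin1 lay at 0.03, with 636 CPM (DKK1) and 608 CPM (PBS) in precursor cells 2 and 89.5 CPM (DKK1) and 70.9 CPM (PBS) in precursor cells 1. Phf11d, Ms4a4c and Fgl2 lay at 0.06 to 0.07 and Ifi205 at 0.08. The members themselves lay between 0.04 (Gbp3) and 0.54 (Iigp1), while the 5 genes were picked for their small distance. With 4 libraries, most of this likeness is the difference between the preparations.

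Marker levels of other cells also differed between the preparations, and their part in the GTPase difference was not tested. The 7 neutrophil markers summed to 9030 CPM (DKK1) and 8795 CPM (PBS) in precursor cells 2. In precursor cells 1 they summed to 4680 CPM (DKK1) and 4728 CPM (PBS). All 7 were called higher in precursor cells 2, against 17.9% of all genes tested. The 10 T and NK cell markers, whose cells are sources of interferon gamma, summed to 18.7 CPM (DKK1) and 21.7 CPM (PBS) in precursor cells 2, and to 19.0 CPM (DKK1) and 22.1 CPM (PBS) in precursor cells 1. Of these, Gzma was at 0 in precursor cells 2 and Klrb1c in all libraries except PBS of precursor cells 1. Most of the sum was Nkg7 and Cd247. Of the 7 markers tested, Cd8a was called lower in precursor cells 2 (log2 -1.50) and 6 were not called.

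The B cell markers, given above, were lower in precursor cells 2, and all 6 were called, against 2780 of all 17462 genes tested called lower. Dendritic cell markers without Bst2, which is itself interferon-induced, summed to 57.2 CPM (DKK1) and 54.6 CPM (PBS) in precursor cells 2, and to 52.1 CPM (DKK1) and 56.1 CPM (PBS) in precursor cells 1. Most of that sum was Itgax, called higher in precursor cells 2 (log2 0.41). Siglech (log2 -1.54) and Flt3 (log2 -1.21) were called lower, as was Cd209a, which was at 0 in precursor cells 2. The 6 stromal and endothelial markers summed to 180 CPM (DKK1) and 171 CPM (PBS) in precursor cells 2, and to 96.2 CPM (DKK1) and 86.8 CPM (PBS) in precursor cells 1. Without Kdr, which was 6.70-fold higher in precursor cells 2, the other 5 summed to 112 CPM (DKK1) and 109 CPM (PBS) in precursor cells 2, and to 87.3 CPM (DKK1) and 76.3 CPM (PBS) in precursor cells 1. Of the 10 monocyte and osteoclast precursor markers, 5 were called higher in precursor cells 2, 1 was called lower and 4 were not called. The higher ones were Ly6c2 (log2 2.84), also known to respond to interferon, Mpeg1 (0.73), Cx3cr1 (0.64), Cd68 (0.63) and Csf1r (0.37), and the lower one was Lyz2 (-0.78).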

How the data were processed

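RNA of 4 libraries was sequenced. The submitters' processing notes name fastp, HISAT2 and the build mm10. The counting program, annotation and strand setting: not given in the sources used here. The deposited table holds whole-number counts per gene, not normalized. The authors' tables, 1 per pair, give FPKM, a log2 ratio of DKK1 over PBS, and p-values and FDR from an unstated test. All columns of individual samples were used (0 left out).

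The table lists 53801 genes, 26361 of them with any count; filterByExpr in edgeR left 17462 for testing, which hold 99.95% of counts. The model was edgeR 4.0.16 quasi-likelihood (TMM, R 4.3.3, limma 3.58.1) with terms for precursor cells and treatment, 1 residual degree of freedom, two-sided p-values, Benjamini-Hochberg adjustment and a threshold of 0.05. P-values measure only the spread between these libraries, and the fit draws the spread of each gene toward a trend over all genes tested. That same-numbered libraries come from 1 mouse is an assumption. Pairs were blocked because their labels share a precursor cell number and the authors' tables compare within pairs. Deviations of same-numbered libraries from the group means correlated at 0.726 (principal component 1 held 76.1% of the variance). With 2 libraries per group both pairs give the same value, and it does not show what the libraries of a pair share. Log2 CPM within pairs used a prior count of 2, with exact 95% binomial intervals for counting error. Overlaps came from GENCODE M21 and near-identical transcripts from BLAST 2.17.0. SciPy 1.17.1 in Python 3.11.15 and DESeq2 1.42.0 (as an alternative) were also used.

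The members and gene lists were chosen with earlier results of these data known. All 9 members are named; of each list, at least the called genes with the 4 smallest p in a comparison (the 2 smallest where none was called), and the 5 genes nearest in profile. The values of 1 gene that this rule names are not reported here. Alternatives covered scaling, filters, tools, the block, left-out libraries, summed overlapping models, prior counts and motif strand.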

Additional observations from a re-analysis of the deposited data

Results flagged for a closer look

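In 6 of the 9 genes the DKK1 library was lower than the PBS library in precursor cells 2 and higher in precursor cells 1. The log2 difference in precursor cells 2 minus that in precursor cells 1 was -0.50 for Gbp3, -0.46 for Iigp1, -0.43 for Gbp7, -0.29 for Irgm2, -0.22 for Igtp and -0.14 for Gbp5. With 1 treated and 1 untreated library per pair, the difference between the pairs was not tested. In precursor cells 2 the values themselves were small, and of these 6 genes only Igtp had a counting interval that excluded 0 there.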

How the results depend on the processing

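No member was called for DKK1, and all 9 were called higher in precursor cells 2, under every alternative run. For DKK1 against PBS, 9 genes of all tested were called. The number was 5 with upper-quartile scaling, 0 with no low-count filter (911 genes at an unadjusted p under 0.05), 20 with a mean count of at least 50, 46 with DESeq2, 2 with limma-voom and 3 with legacy quasi-likelihood. With no replicate block, so that the pairing was ignored, 0 genes were called (115 at an unadjusted p under 0.05), and Igtp turned to -0.071, and to -0.038 in limma-voom. The median of the 9 members was 0.022 with no block and 0.067 in limma-voom, and Ifi47 was 0.22 and 0.37. Leaving out 1 library at a time was possible only without the block and leaves the treatments unbalanced between preparations: 0 genes were called each time (85 to 131 at an unadjusted p under 0.05), and the median log2 change of the 9 members ran from -1.87 to 2.28, against 0.14. It was negative without the DKK1 library of precursor cells 2 (-1.87) or the PBS library of precursor cells 1 (-0.81), and positive without the PBS library of precursor cells 2 (2.28) or the DKK1 library of precursor cells 1 (0.83). Without the PBS library of precursor cells 1 the values were -0.74 for Gbp2, -0.81 for Gbp3, -0.84 for Gbp5, -0.85 for Gbp7, -0.90 for Igtp, -0.54 for Irgm1, -0.77 for Irgm2, -0.90 for Iigp1 and -0.67 for Ifi47. The ranges over all 4 were -1.67 to 2.00 for Gbp2, -1.87 to 2.41 for Gbp3, -2.13 to 2.28 for Gbp5, -1.99 to 2.40 for Gbp7, -2.00 to 2.06 for Igtp, -1.22 to 1.61 for Irgm1, -1.63 to 1.93 for Irgm2, -2.86 to 3.35 for Iigp1 and -1.61 to 3.02 for Ifi47. Within precursor cells 2 alone the median was -0.01 and within precursor cells 1 alone 0.27. Between the preparations 5905 genes were called, 3507 with no low-count filter and 6112 with no treatment term, and 3194 to 4570 with 1 library left out and no treatment term, lowest without the DKK1 library of precursor cells 2, and 3346 without the PBS library of precursor cells 2. On the plus strand alone, 3 of 8 members held an ISRE core, against 7 on both strands. For the changes of count with tool or filter, the cause was not tested.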
